A study of Mus musculus with 12 samples.

Results

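The BCL2 family set described here holds 10 genes of mitochondrial apoptosis, listed by gene symbol: Mcl1, Bcl2l1, Bcl2, Bcl2a1a, Bcl2a1b, Bcl2a1d, Bcl2l11, Bbc3, Pmaip1 and Bax. The set was chosen with earlier results of these data known, so counts of its members are not those of a blind choice. They are 10 of the 56980 gene IDs in the count table, and all 10 were found. Bulk RNA was sequenced from macrophages derived from mouse bone marrow, cells grown from flushed bone marrow for 7 days in medium conditioned by L929 cells. The 12 libraries form 4 groups of 3. The cKO_M1 group is macrophages of the genotype written as RankCre-Regnaes3cKO, a conditional knockout of Regnase-3 named for a Cre line of Rank, stimulated with 100 ng/ml lipopolysaccharide (LPS) and 10 ng/ml interferon-gamma. The WT_M1 group is wildtype macrophages given the same stimulation, the cKO_M0 group is unstimulated knockout macrophages, and the WT_M0 group is unstimulated wildtype macrophages. The sources used here do not give the deleted part of the gene, a Cre-only control or the duration of stimulation, or whether the libraries of a group came from separate mice or cultures. The p-values below therefore measure the spread between these libraries, which may be technical.

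Proteins of the BCL2 family decide whether the outer mitochondrial membrane stays intact. The survival proteins BCL2, BCL-xL (Bcl2l1), MCL1 and A1 (Bcl2a1) bind and restrain the pore-forming effectors BAX and BAK. The BH3-only proteins, among them BIM (Bcl2l11), PUMA (Bbc3) and NOXA (Pmaip1), occupy the groove of the survival proteins or act on the effectors directly. In macrophages, A1 is a textbook target of NF-kB after Toll-like receptor signals, and MCL1 is a short-lived protein with a short-lived messenger RNA.

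Mice carry several near-identical copies of Bcl2a1 on chromosome 9, and their sequences matter here because reads can be shared between rows. The GENCODE transcripts of Bcl2a1a and Bcl2a1b were identical at 98.2% of aligned bases, those of Bcl2a1a and Bcl2a1d at 98.8%, and those of Bcl2a1b and Bcl2a1d at 99.1%. Of all stretches of 100 bases, 56.5% in Bcl2a1a, 68.9% in Bcl2a1b and 45.3% in Bcl2a1d were found in that copy alone, so the split of reads among these rows is uncertain. Their promoters are alike as well. The stretches below come from RefSeq on GRCm38.p6, each from a window of 250 bases before to 50 bases after the gene's start. The AP-1 motif was searched as TGANTCA, where N is any base. The copies Bcl2a1a, Bcl2a1b and Bcl2a1d match it as TGAATCA, in capitals, at the same place in a shared sequence, and Bcl2a1c does not. Bcl2a1c had 0 to 2 counts in every library. Whether the motif bears on the counts of any copy was not tested.
Bcl2a1a: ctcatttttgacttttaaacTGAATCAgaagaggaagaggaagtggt
Bcl2a1b: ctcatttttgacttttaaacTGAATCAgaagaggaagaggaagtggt
Bcl2a1d: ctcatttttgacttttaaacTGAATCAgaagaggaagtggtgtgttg
Bcl2a1c: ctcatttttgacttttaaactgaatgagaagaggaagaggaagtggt
The windows are chr9:88956670-88956969 on the plus strand for Bcl2a1a, chr9:89199023-89199322 on the plus strand for Bcl2a1b, chr9:88731801-88732100 on the minus strand for Bcl2a1d and chr9:114329885-114330184 on the plus strand for Bcl2a1c. Counted from 1 at the 5′ end of the stretch, Bcl2a1c first differs from Bcl2a1a by C26G, which lies in the motif, and Bcl2a1d first differs by A38T. The Bcl2a1a and Bcl2a1b stretches are identical over all 47 bases.

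The motif of NF-kB, searched on both strands by its usual consensus, was found in the windows of 2 members. Bcl2l1 and Bbc3 were the only members with a match, and the matched bases are in capitals. Each of these genes had 3 windows, which gives more places for a match than a single window.
Bcl2l1: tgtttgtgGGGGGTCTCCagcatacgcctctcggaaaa
Bbc3: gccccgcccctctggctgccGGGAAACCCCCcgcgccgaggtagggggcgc
The Bcl2l1 window, 1 of 3 for that gene, is chr2:152830668-152830967 on the minus strand. The Bbc3 window, also 1 of 3 for its gene, is chr7:16309333-16309632 on the plus strand, where overlapping matches make up the capitals. The other windows of both genes held no match to the NF-kB motif. A match is a description of letters and not of binding, and its part in the level of any member was not tested. In all, 9 of the 10 members had a window that could be shown, with 14 windows among them. The AP-1 motif was present in 3 members and the NF-kB motif in 2. The interferon motifs, GAS (TTCNNNGAA) and the core of ISRE, were in 0 of the 9. Of all 32851 promoter windows in the RefSeq table, 7.81% held the AP-1 motif, 4.51% the NF-kB motif, 8.3% the GAS motif and 3.44% the ISRE core. These shares are by single window, whereas a member was counted if any of its windows matched, so the 2 are not alike. The 3 AP-1 matches lie in a shared sequence and are not separate observations.

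The library totals lay between 41721452 and 42197986 counts. Levels of a gene are given as CPM, its counts after every library is brought to the same size, which the TMM scale sets by the typical gene. Macrophage markers were high in all 4 groups, with summed levels of 14636 to 16437 CPM in cKO_M1, 13992 to 15951 CPM in WT_M1, 15232 to 16759 CPM in cKO_M0 and 14170 to 18420.0 CPM in WT_M0. These sums hide single markers that differed between genotypes. Cd68 was lower and Itgam higher in cKO_M1 than in WT_M1 (log2 fold changes -0.46 and 0.25, edgeR adjusted p = 0.000498 and 0.0268). Mertk was lower in cKO_M0 than in WT_M0 (-0.72, edgeR adjusted p = 0.0103). No other genotype difference of these markers passed an adjusted p of 0.05. Zc3h12c, which encodes Regnase-3 and was counted over the whole gene, had 98.4, 104 and 127 CPM in the cKO_M1 libraries, against 176, 192 and 159 CPM in WT_M1. In unstimulated cells it had 13.6, 18.5 and 14.8 CPM in cKO_M0, against 17.2, 16.4 and 15.6 CPM in WT_M0. The targeted gene was thus lower in every cKO_M1 library than in every WT_M1 library, while the M0 groups overlapped and its counts do not check the genotype labels of the M0 libraries. Fewer cells of a type and less RNA per cell cannot be told apart in these bulk samples.

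**Figure D1:**
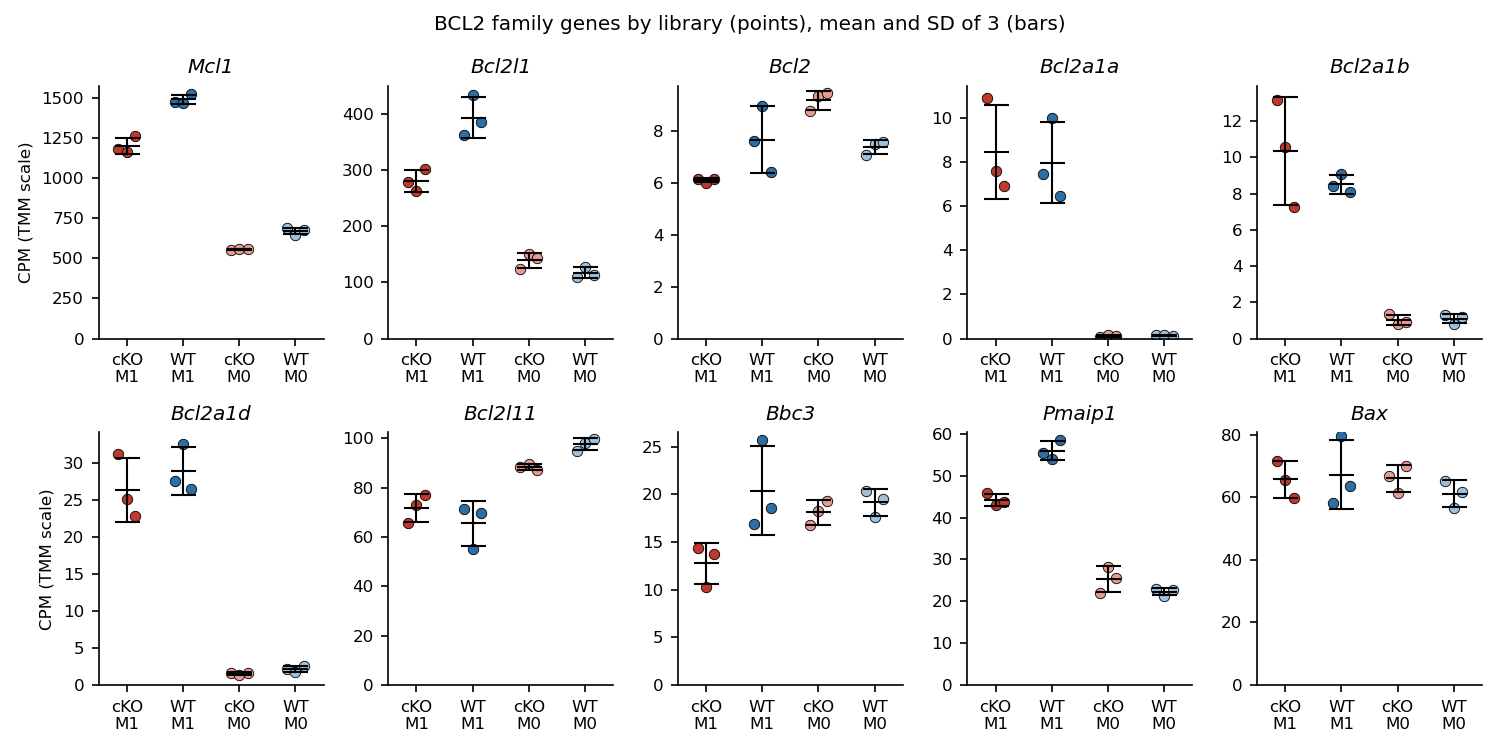
CPM on the TMM scale (vertical axes, each starting at 0) of the 10 BCL2 family genes in the cKO_M1, WT_M1, cKO_M0 and WT_M0 groups, with 1 point per library and bars for the mean and SD of 3. Mcl1, Bcl2l1, Pmaip1 and Bbc3 sit lower in all cKO_M1 libraries than in all WT_M1 libraries, and the Bcl2a1 genes are near the bottom of the axis in both M0 groups.

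To set genes side by side, CPM were divided by gene length (RPKM on the TMM scale). The places of the Bcl2a1 genes in this order may be too low if reads matching several copies were not counted. Mcl1 stood highest in every group. Its level was 351 ± 15.1 RPKM in cKO_M1, 436 ± 8.99 RPKM in WT_M1, 163 ± 0.826 RPKM in cKO_M0 and 196 ± 5.73 RPKM in WT_M0 (SD, n = 3 each). In cKO_M1, Bcl2l1 followed at 61.2 ± 4.24 RPKM, then Bax at 41.7 ± 3.75, Bcl2a1d at 30.6 ± 5.00 and Pmaip1 at 16.2 ± 0.542 RPKM. Bcl2a1b, Bcl2a1a and Bcl2l11 lay between 8.96 and 12.7 RPKM, each overlapping its neighbour, Bcl2a1b also Pmaip1, and Bbc3 stood apart below them at 6.01 ± 1.02 RPKM. Bcl2, the founding gene of the family, was last at 0.667 ± 0.00882 RPKM.

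In WT_M1, Bcl2l1 followed at 85.7 ± 7.90 RPKM, then Bax at 42.6 ± 7.00 and Bcl2a1d at 33.5 ± 3.75 RPKM, whose libraries overlapped. Pmaip1 came next at 20.5 ± 0.820 RPKM. Bcl2a1b, Bcl2a1a, Bbc3 and Bcl2l11 lay between 8.16 and 10.4 RPKM, each overlapping its neighbour. Bbc3 thus did not stand apart from Bcl2l11 there. Bcl2 was again last at 0.838 ± 0.140 RPKM. In the unstimulated groups Bax came after Mcl1, followed by Bcl2l1. Bax had 41.9 ± 2.72 RPKM in cKO_M0 and 38.8 ± 2.67 RPKM in WT_M0, and Bcl2l1 had 30.3 ± 2.98 RPKM in cKO_M0 and 25.5 ± 2.15 RPKM in WT_M0. Bcl2a1a was last in both, at 0.136 ± 0.0608 RPKM in cKO_M0 and 0.177 ± 0.0386 RPKM in WT_M0.

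**Figure D2:**
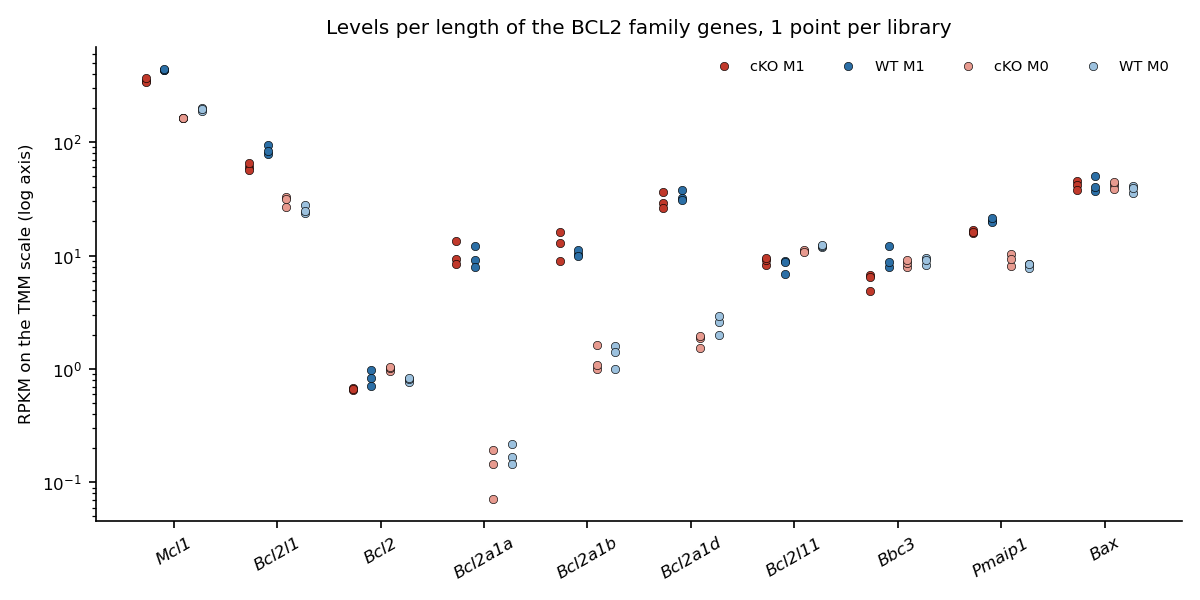
RPKM on the TMM scale (log vertical axis) of each gene, with 1 point per library, coloured by group in the order cKO_M1, WT_M1, cKO_M0, WT_M0. Mcl1 is above the other genes in every group, and Bcl2a1a shows the widest gap between the M1 and the M0 libraries.

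In stimulated macrophages, 4 of the 10 members were lower in cKO than in WT at an adjusted p under 0.05 (edgeR's quasi-likelihood test with Benjamini-Hochberg adjustment over all 15110 genes tested, the threshold used throughout), and 0 were higher. They were the survival genes Mcl1 and Bcl2l1 and the BH3-only genes Bbc3 and Pmaip1. Across all genes tested, 18.6% were called in this comparison, with 9.67% lower and 8.98% higher. The libraries of the cKO and WT groups did not overlap for 5 of the 10 members, against 33.7% of all genes. The median log2 fold change was -0.22 over the members and 0.02 over all genes.

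Bcl2l1 had 278, 263 and 301 CPM in the cKO_M1 libraries, against 362, 433 and 385 CPM in WT_M1. All cKO_M1 libraries lay below all WT_M1 libraries. Its log2 fold change was -0.49 (SE 0.10, edgeR adjusted p = 0.00283), a level 0.714 times that of WT_M1, with a 95% interval from -0.69 to -0.28. The call held in all 12 fits that left out 1 library.

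Mcl1 had 1182, 1161 and 1259 CPM in cKO_M1, against 1473, 1470.1 and 1525 CPM in WT_M1. The groups did not overlap, and the difference was a log2 fold change of -0.31 (SE 0.07, edgeR adjusted p = 0.00490), or 0.806 times the WT_M1 level. Mcl1 thus had the largest absolute difference of the set on the CPM scale, at 1201 ± 51.6 CPM in cKO_M1 and 1489 ± 30.7 CPM in WT_M1. Its call also held in all 12 fits without 1 library.

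Bbc3, whose protein PUMA binds all the survival proteins, had 14.3, 10.3 and 13.7 CPM in cKO_M1, against 16.8, 25.7 and 18.6 CPM in WT_M1. Every cKO_M1 library lay below every WT_M1 library, and replicate 11 of WT_M1 stood above the other WT_M1 libraries. The log2 fold change was -0.67 (SE 0.15, edgeR adjusted p = 0.00650), or 0.627 times the WT_M1 level, the lowest ratio in the set. Without WT_M1 replicate 11 it was -0.49, with an edgeR adjusted p of 0.0362.

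Pmaip1, whose protein NOXA binds MCL1 and A1, had 45.8, 42.9 and 43.8 CPM in cKO_M1, against 55.4, 54.1 and 58.5 CPM in WT_M1. The groups were tight and did not overlap, with a log2 fold change of -0.34 (SE 0.09, edgeR adjusted p = 0.0145), or 0.789 times the WT_M1 level. The call was lost without cKO_M1 replicate 8, where the log2 fold change was -0.33 and the edgeR adjusted p 0.0517.

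Bcl2 had 6.16, 6.01 and 6.14 CPM in cKO_M1, against 7.60, 8.99 and 6.42 CPM in WT_M1. The groups did not overlap, but the WT_M1 libraries were spread and replicate 12 lay close to the cKO_M1 libraries. The log2 fold change was -0.33 (SE 0.12, edgeR adjusted p = 0.0808), and it was called without WT_M1 replicate 12 (-0.45, edgeR adjusted p = 0.0173). Markers of some other cell types also differed between these groups. The 7 B cell markers summed to 0.455 to 0.738 CPM in cKO_M1 and 2.57 to 4.63 CPM in WT_M1. Of these, the immunoglobulin gene Ighm was called lower, at 0.227 ± 0.170 CPM in cKO_M1 and 2.11 ± 0.752 CPM in WT_M1, and Igkc, which was not called, was at 0 in cKO_M1 and 1.32 ± 0.452 CPM in WT_M1. Cd79b ran the other way without overlap, at 0.227 ± 0.0562 CPM in cKO_M1 and 0.118 ± 0.00180 CPM in WT_M1, and was not called. The 7 T and NK cell markers summed to 179 to 241 CPM in cKO_M1 and 445 to 571 CPM in WT_M1. Nearly all of that sum was Il7r, at 203 ± 33.5 CPM in cKO_M1 and 507 ± 63.3 CPM in WT_M1. Il7r was called lower in cKO_M1 (log2 fold change -1.32, edgeR adjusted p = 3.14e-05). The other 6 markers did not pass the filter on low counts, and Cd3e, Cd3g and Cd8a were at 0 in every library. The 6 mast cell and basophil markers summed to 0.312 to 0.651 CPM in cKO_M1 and 1.08 to 1.23 CPM in WT_M1, with Kit called lower in cKO_M1 (log2 fold change -1.68, edgeR adjusted p = 0.00591) and Cma1 and Tpsb2 at 0 in every library. The 9 neutrophil markers summed to 7.30 to 16.05 CPM in cKO_M1 and 6.49 to 11.03 CPM in WT_M1, which overlapped. The low levels of the B cell, mast cell and basophil markers in M1 rest on few counts. The part of these markers in the differences of the members was not tested.

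The Bcl2a1 genes, Bcl2l11 and Bax did not pass the test in M1. The Bcl2a1 copies were summed so that the split of reads between them did not matter. Reads that match several copies may still be missing from the sum, since their handling is not given. The sum was 55.4, 43.3 and 37.1 CPM in cKO_M1, against 43.4, 51.7 and 41.0 CPM in WT_M1. These ranges overlapped, and the log2 fold change of -0.0040 had a 95% interval from -0.32 to 0.31 (edgeR adjusted p = 0.991). Single copies gave 0.09 for Bcl2a1a, 0.28 for Bcl2a1b and -0.13 for Bcl2a1d, with edgeR adjusted p-values of 0.811, 0.366 and 0.560.

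Bcl2l11, whose protein BIM binds every survival protein of the family, had 65.8, 73.1 and 76.9 CPM in cKO_M1, against 71.5, 55.1 and 69.9 CPM in WT_M1. The groups overlapped, with a log2 fold change of 0.13 and a 95% interval from -0.07 to 0.34 (edgeR adjusted p = 0.350). Bax, the effector of the set, had 71.6, 65.5 and 59.8 CPM in cKO_M1, against 58.3, 79.5 and 63.7 CPM in WT_M1, which also overlapped. Its log2 fold change was -0.03, with a 95% interval from -0.26 to 0.20 (edgeR adjusted p = 0.876), and it turned to 0.03 under scaling by library totals alone. These intervals leave room for changes of the size seen in Mcl1 for the summed Bcl2a1 genes, but not for Bcl2l11 or Bax in that direction.

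In unstimulated macrophages, 0 of the 10 members were called between cKO and WT by edgeR's quasi-likelihood test, against 1.61% of all genes, 0.662% higher and 0.953% lower. At an unadjusted p under 0.05 there were 4 members (Mcl1, Bcl2a1d, Bcl2 and Bcl2l1), beside 18.6% of all genes at that threshold, and DESeq2 and limma-voom each called 1, Mcl1. The libraries did not overlap for 4 of 10 members, against 26.2% of all genes: Bcl2 was higher in cKO_M0, and Mcl1, Bcl2a1d and Bcl2l11 were lower. The members' median log2 fold change was -0.09, beside 0.01 over all genes. The count of called genes behind that share depended on single libraries, from 1 gene without cKO_M0 replicate 3 to 452 without cKO_M1 replicate 7.

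Mcl1 was nearest to the threshold, with 553, 558 and 557 CPM in cKO_M0, against 686, 647 and 674 CPM in WT_M0. All cKO_M0 libraries lay below all WT_M0 libraries. The log2 fold change was -0.27 (SE 0.07, 95% interval -0.41 to -0.12, edgeR adjusted p = 0.0598), near the value of -0.31 in M1. It was called by DESeq2 (adjusted p = 0.000346), by limma-voom (adjusted p = 0.0289), with halved counts (edgeR adjusted p = 0.0452), and without cKO_M1 replicate 7 or 9 (edgeR adjusted p = 0.0442 and 0.0406). Over the 12 fits without 1 library its edgeR adjusted p ran from 0.0406 to 0.299.

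Bcl2 had 8.78, 9.36 and 9.45 CPM in cKO_M0, against 7.08, 7.51 and 7.58 CPM in WT_M0. The cKO_M0 libraries were all above the WT_M0 libraries, with a log2 fold change of 0.32 (SE 0.12, edgeR adjusted p = 0.177), which did not pass. The B cell markers summed to 32.8 to 56.9 CPM in cKO_M0 and 51.8 to 66.4 CPM in WT_M0, which overlapped. Most of that sum was Ighm, at 37.1 ± 9.76 CPM in cKO_M0 and 53.1 ± 5.92 CPM in WT_M0, while Cd79b had 2.15 ± 0.360 CPM in cKO_M0 and 1.81 ± 0.139 CPM in WT_M0, and neither was called. The T and NK cell markers summed to 111 to 138 CPM in cKO_M0 and 145 to 157 CPM in WT_M0, and the mast cell and basophil markers to 3.38 to 6.01 CPM in cKO_M0 and 6.75 to 7.73 CPM in WT_M0, both without overlap. Il7r and Kit, the only genes of these lists that passed the filter on low counts, were not called in M0 (edgeR adjusted p = 0.269 and 0.224). Their part in the M0 values of Bcl2 and Mcl1 was not tested.

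Bcl2l1 had 124, 150.1 and 143 CPM in cKO_M0, against 110, 128 and 113 CPM in WT_M0. The ranges overlapped at 1 library, and the log2 fold change was 0.25 (SE 0.10, edgeR adjusted p = 0.184). Bcl2a1d had 1.63, 1.32 and 1.67 CPM in cKO_M0, against 2.23, 1.72 and 2.54 CPM in WT_M0, with a log2 fold change of -0.49 (SE 0.18, edgeR adjusted p = 0.170). Of the other members, Bcl2l11 had a log2 fold change of -0.15 and Pmaip1 of 0.18, while Bax, Bbc3, Bcl2a1a and Bcl2a1b lay between -0.38 and 0.11, with edgeR adjusted p-values from 0.302 to 0.875 over these 6.

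**Figure D3:**
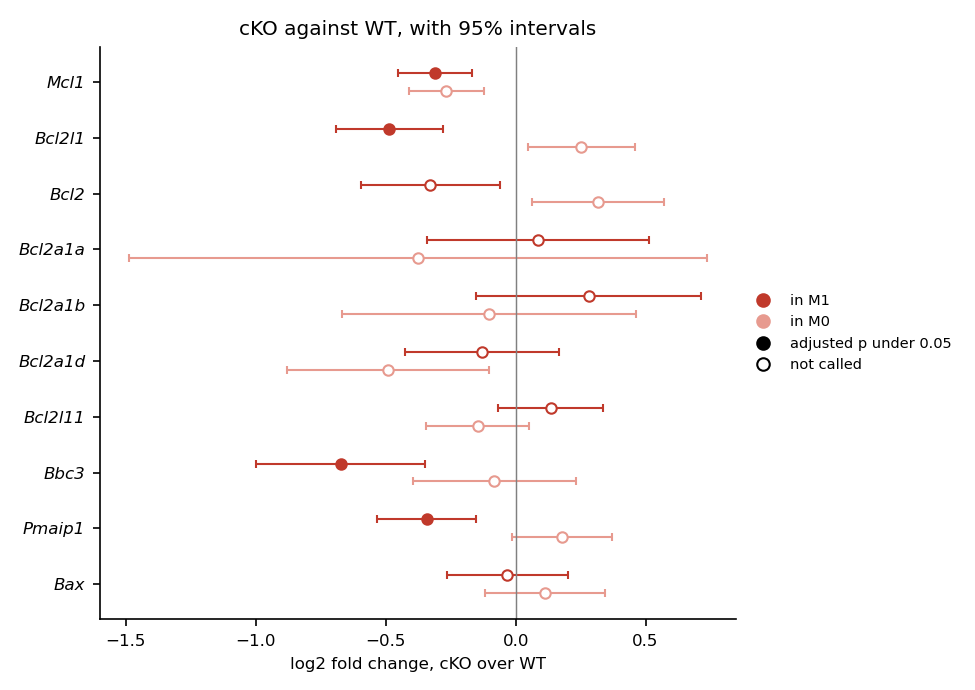
Log2 fold change of cKO over WT (horizontal axis) with 95% intervals for each gene, in M1 (darker) and in M0 (lighter). Filled points passed an adjusted p of 0.05: Bcl2l1, Mcl1, Bbc3 and Pmaip1 in M1, and no gene in M0.

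Whether the genotype difference itself changed with stimulation was tested as the difference between the log2 fold changes in M1 and in M0 (the interaction). It was called for 3 of 10 members, all with a lower value in M1, against 8.16% of all genes, 4.14% with a lower and 4.02% with a higher value. Bcl2l1 had an interaction of -0.74 (SE 0.14, edgeR adjusted p = 0.00540): its log2 fold change was -0.49 in M1 and 0.25 in M0. The interaction of Bcl2l1 was called in all 12 fits without 1 library.

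Pmaip1 had an interaction of -0.52 (SE 0.13, edgeR adjusted p = 0.0212), from log2 fold changes of -0.34 in M1 and 0.18 in M0. In M0 it had 22.1, 28.3 and 25.5 CPM in cKO_M0, against 22.9, 21.3 and 22.8 CPM in WT_M0, so the genotypes overlapped there. Its interaction was lost without cKO_M1 replicate 8, cKO_M0 replicate 3 or WT_M0 replicate 6, with edgeR adjusted p-values of 0.0595, 0.0554 and 0.0517. Bcl2 had an interaction of -0.64 (SE 0.17, edgeR adjusted p = 0.0337), with -0.33 in M1 and 0.32 in M0. Its call was lost in 8 of the 12 fits without 1 library, with edgeR adjusted p-values up to 0.0834 without cKO_M0 replicate 3. It held without cKO_M0 replicate 1, cKO_M1 replicate 7 or 9 and WT_M1 replicate 12.

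Mcl1 had an interaction of -0.04 (95% interval -0.25 to 0.16, edgeR adjusted p = 0.823), which turned to 0.0039 under scaling by library totals alone. Bbc3 reached -0.59 (SE 0.21, edgeR adjusted p = 0.100) and was called without the filter on low counts (-0.62, edgeR adjusted p = 0.00833). The other 5 members lay between -0.14 for Bax and 0.46 for Bcl2a1a, and did not pass. The interaction uses the same libraries as the genotype comparisons in M1 and M0 and is not independent of them.

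Stimulation moved most of the transcriptome, so it is set against that background: 70.2% of all genes were called between M1 and M0 in cKO and 71.4% in WT. Bcl2a1a passed the filter on low counts only through its M1 libraries and had to differ, so it is left out of the counts. Of the other 9 members, 8 were called in cKO, 5 higher and 3 lower, and 6 were called in WT, 5 higher and 1 lower. The M1 and M0 libraries did not overlap for 8 of these 9 in cKO and 6 in WT, against 72.7% of all genes in cKO and 75.6% in WT. Higher calls made up 34.2% of all genes in either genotype, and lower calls 36.0% in cKO and 37.1% in WT. On scaling by library totals alone the median of all genes moved by -0.53 in cKO and -0.58 in WT relative to the TMM scale. Higher calls then made up 24.2% of calls in cKO and 23.5% in WT, whereas on the TMM scale they made up 48.7% in cKO and 48.0% in WT. The log2 differences below are therefore given relative to the median of all genes where this is said, while every p-value tests the value on the TMM scale against 0. The libraries are those already compared between genotypes above, so these results are not independent of them.

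The A1 genes had the largest differences. Bcl2a1d had 31.2, 25.1 and 22.9 CPM in cKO_M1, against 1.63, 1.32 and 1.67 CPM in cKO_M0, and 27.6, 32.6 and 26.5 CPM in WT_M1, against 2.23, 1.72 and 2.54 CPM in WT_M0. Every M1 library was far above every M0 library. Relative to all genes, the log2 fold change of Bcl2a1d was 4.14 in cKO and 3.80 in WT, and that of Bcl2a1b 3.39 in cKO and 3.03 in WT.

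Bcl2a1a had 10.9, 7.57 and 6.90 CPM in cKO_M1, against 0.058, 0.157 and 0.118 CPM in cKO_M0, and 7.46, 10.0 and 6.45 CPM in WT_M1, against 0.137, 0.180 and 0.118 CPM in WT_M0. Those M0 levels rest on 3, 8 and 6 counts in cKO_M0 and 7, 9 and 6 counts in WT_M0. Its log2 fold changes of 6.26 in cKO and 5.82 in WT relative to all genes are a description.

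The shares of the summed Bcl2a1 counts, which depend on the uncertain split of reads, differed between M1 and M0. Bcl2a1a made up 18.6% ± 1.10 of the sum in cKO_M1, against 4.39% ± 2.46 in cKO_M0, and 17.4% ± 1.84 in WT_M1, against 4.48% ± 1.88 in WT_M0 (SD, n = 3 each). Bcl2a1b made up 22.6% ± 2.62 in cKO_M1, against 37.7% ± 5.80 in cKO_M0, and 18.9% ± 1.12 in WT_M1, against 32.0% ± 2.90 in WT_M0. Bcl2a1d held the largest share in every library, with group means from 57.9% in cKO_M0 to 63.7% in WT_M1. The M1 and M0 ranges of the Bcl2a1a and Bcl2a1b shares did not overlap in either genotype. This is a description only, because Bcl2a1a passed the filter on low counts only through its M1 libraries. Its M0 shares rest on 3 to 9 counts per library. The sum itself had a log2 fold change on the TMM scale of 4.08 (SE 0.18) in cKO and 3.74 (SE 0.17) in WT. The interaction of 0.35 did not pass (edgeR adjusted p = 0.395).

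Bcl2l1 was also higher in M1, with 278, 263 and 301 CPM in cKO_M1, against 124, 150.1 and 143 CPM in cKO_M0, and 362, 433 and 385 CPM in WT_M1, against 110, 128 and 113 CPM in WT_M0. Stimulated and unstimulated libraries did not overlap in either genotype. Its log2 fold change on the TMM scale was 1.01 in cKO and 1.75 in WT (edgeR adjusted p = 1.55e-07 and 2.47e-10), and relative to all genes it was 1.05 in cKO and 1.82 in WT. Mcl1 was higher in M1 by 1.15 in cKO and 1.22 in WT, and Pmaip1 by 0.85 in cKO and 1.39 in WT, on the same relative log2 scale. In both genotypes these 3 genes passed in every fit that left out 1 library.

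Bcl2l11 was lower in M1, with a log2 fold change on the TMM scale of -0.30 in cKO (edgeR adjusted p = 0.0107) and -0.58 in WT (edgeR adjusted p = 4.90e-05), or -0.25 in cKO and -0.51 in WT relative to all genes. Its cKO_M1 libraries had 65.8, 73.1 and 76.9 CPM, against 88.2, 89.4 and 87.1 CPM in cKO_M0, and its WT_M1 libraries 71.5, 55.1 and 69.9 CPM, against 95, 98.0 and 99.9 CPM in WT_M0. The M1 libraries lay below the M0 libraries in both genotypes. The call in cKO was lost without cKO_M1 replicate 7 (edgeR adjusted p = 0.0559).

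Bcl2 and Bbc3 were lower in M1 in cKO, by log2 fold changes on the TMM scale of -0.59 and -0.50 (edgeR adjusted p = 0.000475 and 0.00788), or -0.55 and -0.46 relative to all genes, and were not called in WT. The Bbc3 call in cKO was lost without cKO_M1 replicate 8 (edgeR adjusted p = 0.0509). In WT the log2 fold changes were 0.05 for Bcl2, 0.09 for Bbc3 and 0.14 for Bax on the TMM scale, and all 3 turned negative and were called under library totals alone, at -0.53, -0.50 and -0.45. Relative to the median of all genes those 3 stayed positive under library totals, at 0.12 for Bcl2, 0.15 for Bbc3 and 0.20 for Bax. Bax in cKO had -0.01 on the TMM scale and was lower and called under library totals alone, at -0.55. The test of whether the genotypes differ in their stimulation response is the interaction given above, which was called for Bcl2 and not for Bbc3.

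**Figure D4:**
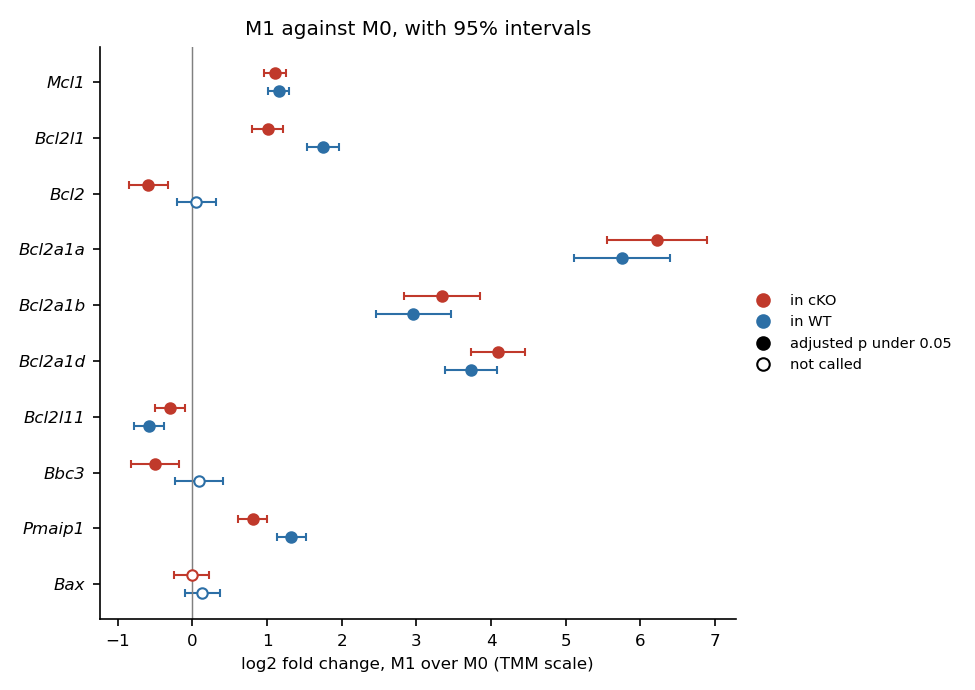
Log2 fold change of M1 over M0 on the TMM scale (horizontal axis) with 95% intervals for each gene, in cKO and in WT. Filled points passed an adjusted p of 0.05; the Bcl2a1 genes lie farthest to the right, and Bcl2l1 and Pmaip1 lie farther right in WT than in cKO.

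The genes whose pattern over the 12 libraries was most like each member were ranked by the root mean square difference of log2 CPM after each gene was centred on its own mean. Over all members' nearest 2 genes this distance ran from 0.0569, for Casp9 beside Bcl2l11, to 0.312, for Gbp6 beside Bcl2a1a. Mcl1 was nearest to Atp6v0c at 0.0623 and Lgmn at 0.0666. Bcl2l1 was nearest to Tcp11l1 at 0.0738 and Cars at 0.0789. Bcl2 was nearest to Stau2 at 0.0664 and Hspd1 at 0.0704, and Bax to Nudt3 at 0.0765 and Timm44 at 0.0794.

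Among the A1 genes, Bcl2a1b was nearest to Fas at 0.183, the death receptor, and Slc31a2 at 0.205, Bcl2a1d to Slamf7 at 0.171 and Scimp at 0.179, and Bcl2a1a to Hcar2 at 0.310. Bbc3 was nearest to Dpp7 at 0.116 and Apmap at 0.127, Pmaip1 to Ccdc126 at 0.0939 and Zfp653 at 0.0995, and the other gene beside Bcl2l11 was Fbf1 at 0.0637. The distances are larger where a gene itself varies more or has few counts, as Bcl2a1a does.

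The rest of the apoptosis machinery was followed through 6 lists of 71 genes, of which 65 were tested. In M1, 23 of the 65 were called (35.4%), beside 18.6% of all genes, 8.98% higher and 9.67% lower, and each list's counts are set against those shares. Of the wider BCL2 family, 2 of 12 tested genes were higher in cKO than in WT and 0 were lower, with a median log2 fold change of 0.17. Bcl2l12 had 3.26 ± 0.472 CPM in cKO_M1 and 2.05 ± 0.517 CPM in WT_M1 (edgeR adjusted p = 0.0226), and Bnip3, a mitophagy receptor, had 85.7 ± 10.4 CPM in cKO_M1 and 68.6 ± 6.04 CPM in WT_M1 (edgeR adjusted p = 0.0434). Bcl2l10, Bcl2a1c, Hrk and Bcl2l15 did not pass the filter on low counts. Of the apoptosome and caspase genes, 3 of 12 were higher and 0 lower: Casp6, an executioner caspase, by a log2 fold change of 0.53, Aifm1 by 0.41 and Casp8, the initiator of the death receptor pathway, by 0.37.

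The inhibitor of apoptosis (IAP) genes moved both ways in M1, with 2 of 9 higher and 5 lower in cKO. Birc3, which encodes cIAP2, had 201 ± 7.45 CPM in cKO_M1 and 162 ± 4.62 CPM in WT_M1, and Birc2 had 38.4 ± 2.93 CPM in cKO_M1 and 30.2 ± 2.49 CPM in WT_M1. Naip2 had 173 ± 11.7 CPM in cKO_M1 and 237 ± 1.75 CPM in WT_M1, and Naip6 had 21.9 ± 4.18 CPM in cKO_M1 and 31.7 ± 1.39 CPM in WT_M1. The Naip genes encode inflammasome sensors, are close paralogs and may share reads. They account for 4 of the 5 lower calls, the other being Xiap at -0.26.

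In the death receptor pathway, 2 of 8 genes were higher and 1 lower in cKO_M1. Tnfrsf1a, a receptor of tumour necrosis factor, rose by a log2 fold change of 0.34 and the adaptor Fadd by 0.38. Cflar, which encodes the caspase-8 inhibitor c-FLIP, had 727 ± 61.1 CPM in cKO_M1 and 910 ± 28.4 CPM in WT_M1 (log2 fold change -0.32, edgeR adjusted p = 0.0141). Of the p53 list, which does not include the p53 target genes Bbc3, Pmaip1 and Bax of the set itself, 3 of 12 were higher and 3 lower. Cdkn1a, a cell cycle inhibitor, had 516 ± 48.5 CPM in cKO_M1 and 306 ± 39.4 CPM in WT_M1. Mdm2, which encodes the ligase that degrades p53, had 628 ± 37.6 CPM in cKO_M1 and 872 ± 86.3 CPM in WT_M1, and Sesn2 and Trp53inp1 were lower by -0.49 and -0.53.

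Of the FOXO genes and regulators of BCL2 protein turnover or binding, 2 of 12 were higher in cKO_M1 and 0 lower, with a median of 0.01. They were Trib1, an adaptor for protein degradation, at 34.8 ± 3.20 CPM in cKO_M1 and 18.7 ± 4.34 CPM in WT_M1, and Dynll1, a light chain known to bind BIM, at 119 ± 23.2 CPM in cKO_M1 and 90.9 ± 6.67 CPM in WT_M1. Foxo3 and the other members of that list did not pass. Under scaling by library totals alone, higher calls made up 61.5% of all genes called in this comparison, against 48.2% on the TMM scale, where the median of all genes differed by 0.06.

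**Figure D5:**
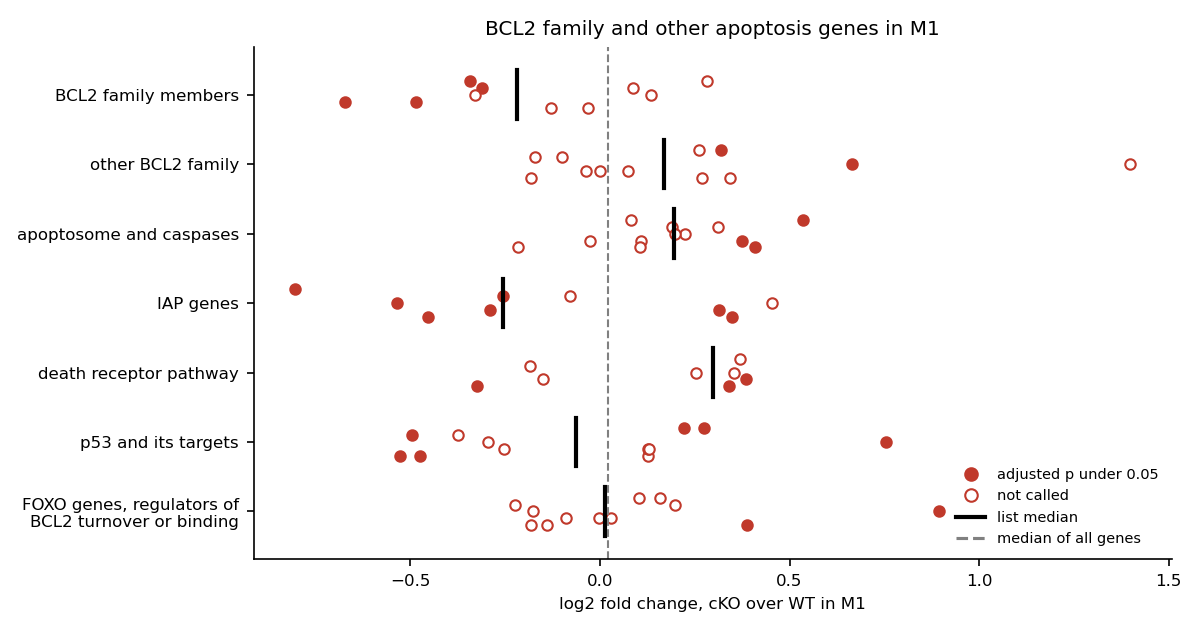
Log2 fold change of cKO over WT in M1 (horizontal axis) for the 10 BCL2 family genes (top row) and 6 lists of other apoptosis genes, with 1 point per tested gene, filled where the adjusted p was under 0.05, a bar at each list's median and a dashed line at the median of all genes. The median is -0.22 for the members and -0.26 for the IAP genes, and lies between -0.06 and 0.30 for the other lists.

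In M0, 4 of the 65 tested list genes were called between cKO and WT (6.15%), beside 1.61% of all genes. Cycs, which encodes cytochrome c, and Cdkn1a were higher in cKO_M0, by log2 fold changes of 0.72 and 0.49, and Birc3 and Tnfrsf1b were lower, by -0.39 and -0.35, with edgeR adjusted p-values from 0.0407 to 0.0463. Birc3 thus differed in sign between the states, and its interaction of 0.70 was called (edgeR adjusted p = 0.00404). Mdm2 had an interaction of -0.82 (edgeR adjusted p = 0.00329), with 172 ± 18.6 CPM in cKO_M0 and 135 ± 8.48 CPM in WT_M0. Trib1, Casp6, Foxo3, Birc2 and Bcl2l2 also had higher interactions, and Sesn2 and Phlda3 lower, which makes 9 of the 65 called in the interaction (13.8%), beside 8.16% of all genes. Xiap and the list genes named in M0 and in the interaction were picked after their values were seen.

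With stimulation in WT, all 12 tested genes of the wider BCL2 family were called, 8 higher and 4 lower, in a comparison where 71.4% of all genes and 53 of the 65 tested list genes (81.5%) were called. Bnip3 was higher, at 68.6 ± 6.04 CPM in WT_M1 and 9.83 ± 0.263 CPM in WT_M0. Bmf, a BH3-only gene linked to loss of attachment, was lower, at 1.27 ± 0.681 CPM in WT_M1 and 19.4 ± 2.90 CPM in WT_M0. Cflar had 910 ± 28.4 CPM in WT_M1 and 93.9 ± 3.23 CPM in WT_M0. Its log2 fold change was 3.28 on the TMM scale, beside 3.74 for the summed Bcl2a1 genes in WT. Birc5, a gene of dividing cells that encodes survivin, had 0.900 ± 0.438 CPM in WT_M1 and 89.5 ± 4.18 CPM in WT_M0. Tnfrsf1b, Mdm2, Naip2, Sesn2 and Vdac2 were higher in WT_M1, by log2 fold changes on the TMM scale from 0.59 for Vdac2 to 2.69 for Mdm2, and Casp2 and Foxo3 were lower, by -1.61 and -0.88.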

How the data were processed

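The deposited table held raw read counts per gene for 12 libraries, with no normalization, and a gene length in bases, per the file headers. Per the submitters' processing notes, the build was GRCm39 and the tools named are featureCounts 2.0.3, HISAT2 2.2.1, SAMtools 1.16.1 and Trimmomatic 0.39, with no role or order given. The sources used here do not give the annotation release, the strand setting or how reads with several matches were counted, which bears on the Bcl2a1 and Naip rows. Of the values from 1 to 10, 60.9% were even, where 50% would be usual, so counts were also tested after halving. Symbols matched 52073 of the 56980 gene IDs. Totals of 41721452 to 42197986 counts made counting error small except for rows with few counts. Among these were the Bcl2a1 rows in M0 and the B cell, mast cell and basophil markers in M1.

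Tests used R 4.3.3 and edgeR 4.0.16 on the counts as deposited (filterByExpr with a minimum count of 10 and a minimum total of 15, leaving 15110 genes and all 10 members, with TMM factors and the quasi-likelihood F-test on 1 model of the 4 groups, common biological coefficient of variation 0.111). Adjustment was Benjamini-Hochberg over all tested genes, with a threshold of 0.05. The SE came from the fold change and its F statistic. Bcl2a1 rows were also summed. Mean TMM factors were 0.840 in cKO_M1, 0.808 in WT_M1, 1.22 in cKO_M0 and 1.21 in WT_M0. Alternatives were DESeq2 1.42.0, limma-voom (limma 3.58.1), 2 further scalings, no filter, only the groups compared, halved counts and each library left out. Promoter windows were RefSeq's for GRCm38.p6, matched by symbol, and no coordinate of that build was joined to the counts. The script was tested on simulated data.

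All 10 members are named in every comparison. Nearest genes were the 2 tested genes with the smallest distance and a mean of at least 5 CPM. From each list, up to 4 called genes with the smallest p were named in cKO against WT in M1 and up to 2 in M1 against M0 in WT; a gene that this rule names is not reported here. The members and lists were chosen with earlier results of these data known.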

Additional observations from a re-analysis of the deposited data

Results flagged for a closer look

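The difference between cKO and WT itself differed between M1 and M0 for 3 members (edgeR's quasi-likelihood test of the interaction, Benjamini-Hochberg adjusted p under 0.05). The interaction was -0.74 for Bcl2l1, whose mean level was 281 ± 19.4 CPM in cKO_M1 and 393 ± 36.2 CPM in WT_M1, but 139 ± 13.7 CPM in cKO_M0 and 117 ± 9.87 CPM in WT_M0. It was -0.64 for Bcl2, with 6.11 ± 0.0808 CPM in cKO_M1 and 7.67 ± 1.29 CPM in WT_M1, and 9.20 ± 0.367 CPM in cKO_M0 and 7.39 ± 0.270 CPM in WT_M0. It was -0.52 for Pmaip1, with 44.2 ± 1.48 CPM in cKO_M1 and 56.0 ± 2.24 CPM in WT_M1, and 25.3 ± 3.11 CPM in cKO_M0 and 22.3 ± 0.869 CPM in WT_M0. All 3 genes had a negative log2 fold change in M1 and a positive one in M0. None of them was called between cKO and WT in M0, and Bcl2 was not called in M1. Of the 12 fits without 1 library, the interaction call was lost in 8 for Bcl2 and in 3 for Pmaip1, and it held in all for Bcl2l1.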

How the results depend on the processing

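No paired analysis was possible because the replicate numbers run from 1 to 12 and no number is shared between groups. Of 939 values of single members under alternatives, 900 kept their direction and side of the threshold, 14 lost the call, 8 gained it and 17 turned sign. The fit of only the 2 groups compared gives no interaction, and Bcl2a1a failed its filter in M0. In M0, 244 genes were called between cKO and WT, against 1182 without the filter on low counts, 827 with DESeq2, 491 with limma-voom, 394 with only the 2 groups compared and 373 with halved counts. Leaving out 1 library gave 1 to 452 genes. Of the members, DESeq2, limma-voom and halved counts each called 1 in M0, and leaving out 1 library gave 0 to 1. In M1, 2818 genes were called, and 1658 (without WT_M1 replicate 11) to 3082 with 1 library left out. The interaction was called for 1233 genes, against 1972 without the filter and 565 to 1576 with 1 library left out, where 1 to 3 members were called.

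Signs turned where a value was near 0 or moved with the scaling. For M1 against M0 in cKO, Bax was 0.0053 with DESeq2-type size factors, 0.0020 with only the 2 groups compared, and -0.069 to 0.057 with 1 library left out. For M1 against M0 in WT, library totals alone gave -0.53 for Bcl2, -0.50 for Bbc3 and -0.45 for Bax, and leaving out 1 library gave -0.063 to 0.18 for Bcl2 and -0.10 to 0.21 for Bbc3. For cKO against WT in M1, Bax was 0.026 under library totals and -0.13 to 0.092 with 1 library left out, Bcl2a1a was -0.15 to 0.27, and the summed Bcl2a1 genes were 0.053 under library totals, 0.086 and 0.28 from Bcl2a1a or Bcl2a1b alone and -0.18 to 0.11 with 1 library left out. In M0, Bcl2a1b was -0.35 to 0.037 with 1 library left out. The Mcl1 interaction was 0.0039 under library totals. The cause of these shifts was not tested. Higher calls made up 60.5% of the interaction calls under library totals, against 49.3%.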
